A study of Mus musculus with 2 samples.

Results

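The 10 genes described here belong to the Bcl2 family, whose proteins decide at the mitochondrion whether a cell starts apoptosis. They were taken by gene name from the longer of the deposited array tables, where each of the 10 has its own row among 30774 gene identifiers. The arrays compared B6 mouse embryonic stem cells (mESCs) treated with LIF, a cytokine acting through Stat3, with B6 mESCs treated with LIF plus CHIR99021 (CHIR), which blocks GSK3 and thereby stabilizes β-catenin, the mediator of Wnt signaling. Both groups carry the strain label B6 and the stage label E3.5 embryo, the source is given as inner cell mass, the medium contained serum, and the CHIR treatment lasted 12 h. The growth text names LIF and CHIR for both samples, so the condition was taken from the sample titles, and the CHIR dose of the array samples is not given in the sources used here. Total RNA of each condition was hybridized to 1 Illumina array, which reports the RNA of a gene as the brightness (signal intensity) of beads bearing its probes. With 1 array per condition no difference has a replicate check, differences were given no p-value, and CHIR cannot be told apart from other ways in which the 2 samples differed.

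Survival proteins of the family, such as Bcl2, Bcl-xL, Bcl-w and Mcl1, keep the outer mitochondrial membrane closed by binding their pro-apoptotic relatives. Bax and Bak1 are the effectors that form pores in that membrane, and the BH3-only proteins, which include Bim (the product of Bcl2l11), Bid, Bad and Noxa (the product of Pmaip1), transmit stress signals by engaging the survival proteins or the effectors. Open pores release cytochrome c, which drives Apaf1 and caspase-9 to start the caspase cascade. GSK3, the kinase that CHIR inhibits, is known to phosphorylate Mcl1 and mark the protein for degradation, a step that an RNA array does not measure.

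A gene was taken as detected when its detection p-value, which compares the signal with the negative controls of the same array, was under 0.01 on at least 1 array. A difference was called when the signals differed by at least 1.5-fold, the limit that the study used. Over the whole array 9597 genes were detected, the median log2 fold change was 0.00, and 8.15% of these genes were called. Of all detected genes, 4.12% were called higher and 4.03% called lower in LIF plus CHIR. Axin2, a Wnt target gene, had a signal of 314.1 in LIF and 1177.9 in LIF plus CHIR. Sp5, another Wnt target, had 48.8 and 809.5, whereas Lef1 was detected on neither array. Sp5 was not detected in LIF, with a detection p-value of 0.015, so the size of its change is not measured. The higher Axin2 and Sp5 signals lay on the array labelled with CHIR, with log2 fold changes of 1.91 and 4.05, or 0.94 and 0.75 with the background modelled from all identifiers. With the background modelled from identifiers that appear to have 1 probe, they were 1.86 and 3.68. Of 8 mESC markers 6 were detected on both arrays and 2 (Sox2 and Tdgf1) on neither. None of the 6 was called, with log2 fold changes of -0.13 for Pou5f1, -0.04 for Dppa3, 0.08 for Zfp42, 0.36 for Esrrb, 0.55 for Nanog and 0.58 for Klf4, the last 3 above the 95th percentile of equally bright identifiers. None of 6 fibroblast markers was detected on either. Among these, Thy1 was bright all the same, with signals of 222.3 and 225.3 and detection p-values of 0.354 and 0.302. Sox2 likewise had 441.2 and 400.2, with detection p-values of 0.0503 and 0.276. Both appeared to combine several probes, so their lack of detection does not show that the RNA was absent. Of 6 primitive endoderm markers, Sox7 was detected, with signals of 45.9 and 59.0.

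Of the 10 Bcl2 family genes, 8 were detected, each of them on both arrays. Bcl2l11 was called lower in LIF plus CHIR and no member was called higher. The remaining 7 differed by less than 1.5-fold, with log2 fold changes from -0.37 for Mcl1 to 0.30 for Bad. The signal was higher in LIF plus CHIR for 4 of the 8 and lower for 4, with a median log2 fold change of 0.05. A single call among 8 genes is not far from the 8.15% called among all detected genes, so the count by itself sets the family apart in no way. Bcl2 and Pmaip1 were not detected on either array.

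**Figure D1:**
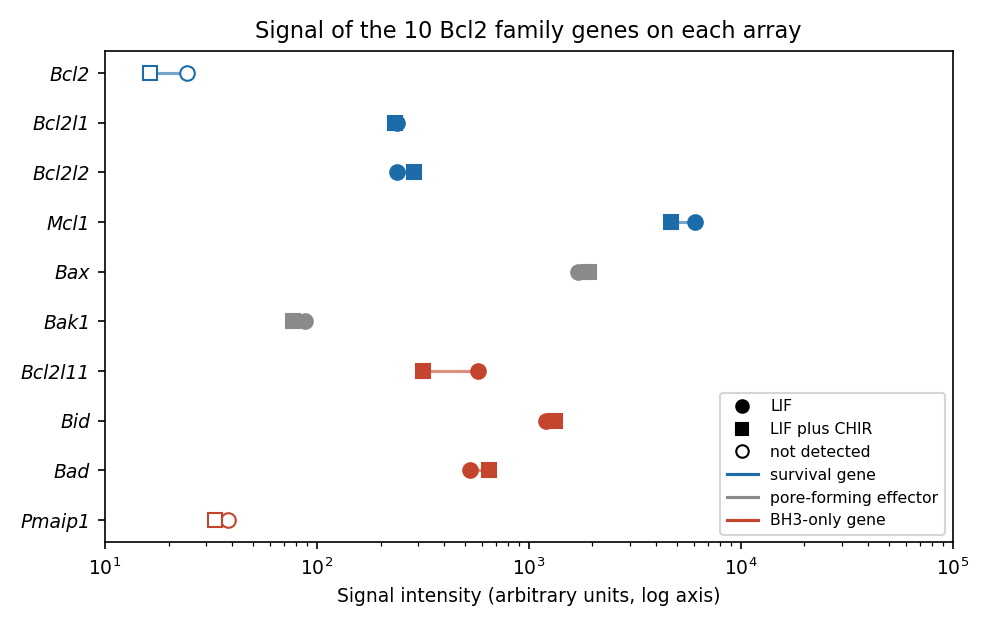
Signal intensity (arbitrary units, log axis) of each of the 10 genes, with a circle for the LIF array, a square for the LIF plus CHIR array and open symbols for genes detected on neither array. Bcl2l11 shows the widest gap among detected genes, from 574.8 in LIF to 318.2 in LIF plus CHIR, and levels of different genes are not comparable because each has its own probes.

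Among the survival genes, Mcl1 (Entrez gene 17210, chromosome 3) had a signal of 6067.1 in LIF and 4705.5 in LIF plus CHIR. Its log2 fold change was -0.37, a 1.29-fold lower signal that stayed under the limit for a call. Among the 1550 detected identifiers whose brighter signal was 3000 or more, the 5th and 95th percentiles of the log2 fold change were -0.26 and 0.26, so that Mcl1 lay outside the middle range of equally bright genes. In that range 29 identifiers had a lower value than Mcl1, and 4.58% lay at least as far from 0 in either direction. Mcl1 was thus lower by a margin that few bright genes exceeded, although the margin was small.

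Bcl2l1 (Entrez gene 12048, chromosome 2), which encodes Bcl-xL, had nearly equal signals of 240.2 in LIF and 233.9 in LIF plus CHIR. Bcl2l2 (Entrez gene 12050, chromosome 14), which encodes Bcl-w, had 237.9 and 286.3, a log2 fold change of 0.27. Both lay within the 5th to 95th percentile range of identifiers with a brighter signal between 100 and 300, which reached from -0.58 to 0.56. Bcl2 (Entrez gene 12043, chromosome 1), the founding member of the family, had a signal of 24.3 in LIF and 16.3 in LIF plus CHIR. Its detection p-values were 0.167 and 0.166, so no fold change is given. The survival genes therefore moved in no common direction, with the lowest value for Mcl1 and the highest for Bcl2l2.

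The effectors Bax and Bak1 differed little between the arrays. Bax (Entrez gene 12028, chromosome 7) had a signal of 1714.1 in LIF and 1925.8 in LIF plus CHIR, a log2 fold change of 0.17. Bak1 (Entrez gene 12018, chromosome 17) had 88.0 and 77.3, a log2 fold change of -0.19. The values had opposite signs, and each lay within the 5th to 95th percentile range of equally bright identifiers, which was -0.34 to 0.33 for Bax and -0.82 to 0.87 for Bak1. Close to background, as for Bak1, 20.7% of detected identifiers with both signals under 100 passed 1.5-fold, so a change of that size would have stood out less there.

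Bcl2l11 gave the largest difference of the 8 detected genes. Its product Bim binds all of the main survival proteins and can engage Bax and Bak1 directly. Its RNA gave a signal of 574.8 with LIF and 318.2 with LIF plus CHIR, a 1.81-fold lower signal with a log2 fold change of -0.85. The detection p-values were 0.000787 and 0.000933. Of 2339 detected identifiers whose brighter signal lay between 300 and 1000, 2.61% were called lower and 27 had a lower value than Bcl2l11. The 5th and 95th percentiles of that group were -0.42 and 0.44. Bcl2l11 was thus well below the middle range of equally bright genes. In such bulk RNA, fewer cells of a type and less RNA per cell cannot be told apart.

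The Bcl2l11 value appears to be a combination over several probes. The number of negative controls, 936, was inferred from the detection p-values. Identifiers with 1 brighter control had a median signal of 74.4 with LIF and 69.5 with LIF plus CHIR. These lie far below the Bcl2l11 signals of 574.8 and 318.2, although the Bcl2l11 p-values are above 0. Bcl2, Bcl2l2, Bid and Pmaip1 also appeared to combine several probes. Among the 455 identifiers of the same brightness that also appeared to combine several probes, 2.42% were called lower and 4 had a lower value. The separate probes and their bead errors were not used here. Probes for different transcripts of Bcl2l11 can therefore not be told apart. The call did not hold under a correction that models the background from the detection p-values of all identifiers, with which the log2 fold change was -0.26. The background SD fitted by that correction was 588.4 for the LIF array and 585.8 for the LIF plus CHIR array, as large as the Bcl2l11 signals themselves. With the background modelled from identifiers that appear to have 1 probe, for which the SD was 15.7 on each array, it was -0.82.

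**Figure D2:**
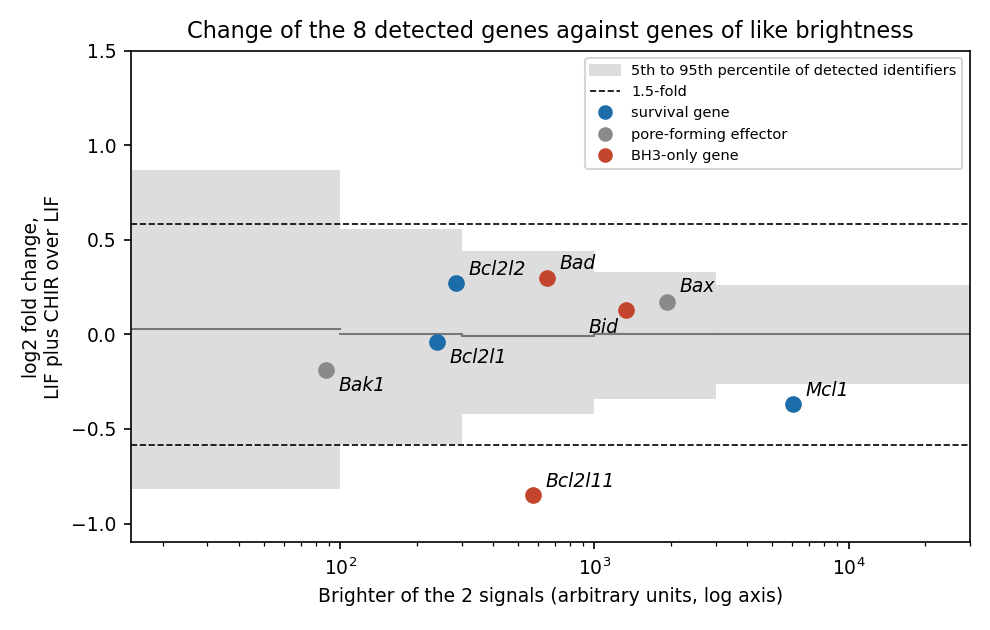
The log2 fold change of LIF plus CHIR over LIF (vertical axis) against the brighter of the 2 signals (horizontal axis, arbitrary units, log axis) for the 8 detected genes, with the grey area from the 5th to the 95th percentile of detected identifiers in 5 brightness ranges, a grey line for their median and dashed lines at 1.5-fold. Bcl2l11 at -0.85 and Mcl1 at -0.37 lie below the grey area, and the other genes lie within it.

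Because Bcl2l11 is the member whose RNA differed most, the 250 bases before the first of its 2 start sites in the RefSeq table are shown. They lie on the plus strand of build GRCm38.p6 at chr2:128125788-128126037, a build that belongs to RefSeq and not to the array files. Capitals mark a match to GTAAACA, the letters that FoxO factors, known activators of Bcl2l11, prefer.
Bcl2l11: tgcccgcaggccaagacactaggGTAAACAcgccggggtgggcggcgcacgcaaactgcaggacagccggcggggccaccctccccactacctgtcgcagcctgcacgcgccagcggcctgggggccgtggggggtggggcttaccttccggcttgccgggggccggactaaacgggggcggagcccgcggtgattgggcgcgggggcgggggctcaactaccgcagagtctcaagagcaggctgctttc
The match begins 227 bases before the start site and overlaps no match of the other motifs searched. RefSeq windows were found for 9 of the 10 genes, 13 in all. On either strand, GTAAACA occurred in 1 of these 13 windows and in 3.17% of 32851 windows of the same length. The Tcf/Lef letters CTTTGAA occurred once, in the window of Bax, against 4.46% of all windows. The Stat letters TTCNNNGAA, where N is any base, occurred in 0 of the 13 windows and in 7.02% of all. These are matches of letters and not evidence of binding.

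Among the remaining BH3-only members, Bid (Entrez gene 12122, chromosome 6), whose product is cut by caspase-8 and so links death receptors to mitochondria, had a signal of 1213.3 in LIF and 1327.0 in LIF plus CHIR. Bad (Entrez gene 12015, chromosome 19), whose product is held inactive by phosphorylation after growth factor signaling, had 526.4 and 648.8. The log2 fold changes were 0.13 for Bid and 0.30 for Bad. Both were slightly higher in LIF plus CHIR, opposite to Bcl2l11 and within the range of equally bright genes. Pmaip1, which encodes the Mcl1-binding protein Noxa, was not detected, with signals of 38.2 and 33.0 and detection p-values of 0.308 and 0.711. The array annotation gives no description for the Bcl2l11 and Pmaip1 rows, so the identity of these genes rests on the symbol alone.

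The balance between survival and pro-apoptotic genes was described by the change of each signal ratio between the arrays, which does not depend on a scaling of a whole array. The 3 detected survival genes and 5 detected pro-apoptotic genes give 15 such ratios, which share genes and are not independent. Relative to Bcl2l11, the ratio was higher in LIF plus CHIR for all 3 survival genes, with log2 changes of 0.49 for Mcl1, 0.81 for Bcl2l1 and 1.12 for Bcl2l2, but with the background modelled from all identifiers that of Mcl1 turned to -0.17. Of the 12 ratios without Bcl2l11, 4 were higher in LIF plus CHIR, with log2 changes between -0.67 and 0.45. The lowest of them was Mcl1 relative to Bad, a 1.59-fold shift toward Bad. Mcl1 was lower relative to each pro-apoptotic gene except Bcl2l11. In the deposited signals 3 of the 15 ratios changed by at least 1.5-fold, those of Bcl2l1 and Bcl2l2 to Bcl2l11 and that of Mcl1 to Bad. With the background modelled from all identifiers, 0 of these 3 did, with values of 0.25, 0.30 and -0.56, and Mcl1 over Bax passed the limit in their place, with -0.65 compared with -0.53 before. Bcl2l2 over Bax and over Bid also turned from 0.10 and 0.14 to -0.18 and -0.08. With the background modelled from identifiers that appear to have 1 probe, the same 3 ratios as in the deposited signals passed the limit. Under that fit Mcl1 over Bcl2l11 was 0.46, and Bcl2l2 over Bax and over Bid were 0.08 and 0.12. In the deposited signals the ratios to Bcl2l11 and those of Mcl1 to the other pro-apoptotic genes thus moved oppositely. These directions restate the single values, because Bcl2l11 at -0.85 and Mcl1 at -0.37 had the lowest log2 fold changes of the detected members.

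**Figure D3:**
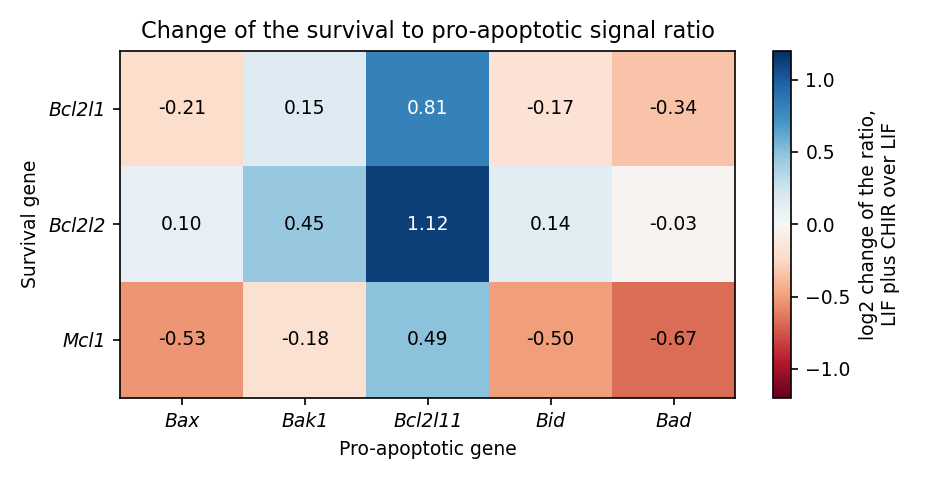
The log2 change, LIF plus CHIR over LIF, of the signal ratio of each survival gene (rows) to each pro-apoptotic gene (columns), with blue for a shift toward the survival gene and red for a shift toward the pro-apoptotic gene. The Bcl2l11 column is blue in all 3 rows, from 0.49 to 1.12, and the Mcl1 row is otherwise red, from -0.67 to -0.18. The value of Mcl1 over Bcl2l11 turns to -0.17 with the background modelled from all identifiers. It is 0.46 with that modelled from identifiers that appear to have 1 probe.

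The list of other Bcl2 family genes, which also holds genes for interacting proteins such as Bnip2, gave no call. Of 22 listed genes, 19 are on the array and 7 were detected, with a median log2 fold change of -0.03. Bik, a BH3-only gene, had a signal of 134.9 in LIF and 99.2 in LIF plus CHIR, a log2 fold change of -0.44. Bbc3, which encodes the p53-induced BH3-only protein Puma, had 538.7 and 433.0 (log2 fold change -0.32). Bmf, also BH3-only, had 197.2 and 161.0 (log2 fold change -0.29). Bcl2l13, a mitochondrial member of the family, had 408.1 and 483.3 (log2 fold change 0.24). Grouped after their values were seen, 4 of the 6 detected BH3-only genes (Bcl2l11, Bik, Bbc3 and Bmf) were lower in LIF plus CHIR and 2 (Bid and Bad) higher, with a median log2 fold change of -0.30. Among these, the value of Bcl2l11 alone lay outside the range of equally bright identifiers. With the background modelled from all identifiers, Bik, Bbc3 and Bmf had -0.03, -0.11 and -0.03. With the background modelled from identifiers that appear to have 1 probe, they had -0.39, -0.31 and -0.27.

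Downstream of the mitochondrion, 11 of 18 genes of the apoptosome, the caspases and the release factors were detected and none was called, with a median log2 fold change of 0.00. Cycs, which encodes cytochrome c, had 1464.2 in LIF and 1875.6 in LIF plus CHIR, a log2 fold change of 0.36. Apaf1, the scaffold of the apoptosome, had 1444.7 and 1302.5 (log2 fold change -0.15). Htra2, a protease released with cytochrome c, had 774.8 and 856.9 (log2 fold change 0.15). Of 9 inhibitor of apoptosis genes on the array, 2 were detected, and the log2 fold changes were -0.02 for Birc2 and -0.03 for Birc5. The caspase machinery thus differed little between the arrays.

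Of 10 death receptor and adaptor genes on the array, 5 were detected and 2 were called higher in LIF plus CHIR. Both are dim, with signals under 100. In that brightness range 10.4% of detected identifiers were called higher, compared with 4.12% of all detected genes. Tradd, an adaptor of the TNF receptor, had a signal of 44.1 in LIF and 81.9 in LIF plus CHIR. Tnfrsf1a, the TNF receptor itself, had 12.1 and 27.0. Neither was detected in LIF, so each passed detection only through the array where its signal was higher. The size of the change is therefore not measured, and the direction for Tnfrsf1a depended on the minimum signal chosen. Their log2 fold changes, 0.89 for Tradd and 0.84 for Tnfrsf1a, lay close to the 95th percentile of equally bright identifiers, which was 0.87. The detected Tnfrsf10b, Fadd and Ripk1 had log2 fold changes of 0.29, 0.03 and -0.18. Of 25 regulators of the family on the array, 16 were detected and Pim2, a survival kinase gene, was called lower, with 89.3 and 55.3 (log2 fold change -0.69). Its relative Pim1 had 45.2 and 56.6 (log2 fold change 0.32). Foxo1, a FoxO factor gene, had 495.4 and 394.7 (log2 fold change -0.33, or -0.10 with the background modelled from all identifiers), and the stress kinase gene Mapk8 had a log2 fold change of -0.26. With the background modelled from all identifiers, the calls of Tradd, Tnfrsf1a and Pim2 did not hold, with log2 fold changes of 0.03, 0.01 and -0.03. With the background modelled from identifiers that appear to have 1 probe, they were 0.70, 0.38 and -0.57, so that of Tradd held. Foxo1 had -0.32 under that fit. Both Pim genes are dim as well, in the same brightness range as Tradd and Tnfrsf1a, where 20.7% of identifiers were called in either direction. Over all 5 lists, 41 genes were detected, 2 were called higher and 1 lower, a share close to the background of 8.15%.

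**Figure D4:**
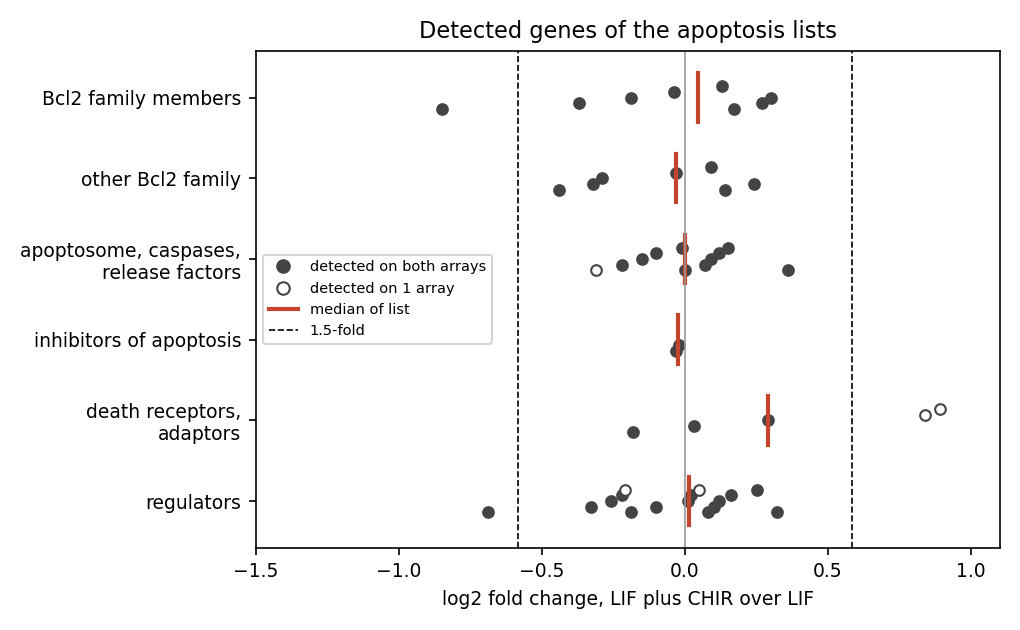
The log2 fold change of LIF plus CHIR over LIF for each detected gene of the Bcl2 family members and of 5 further lists, with filled points for genes detected on both arrays, open points for genes detected on 1 array, a red line for the median of each list and dashed lines at 1.5-fold. Medians lie between -0.03 and 0.29, and the 4 genes outside the dashed lines are Bcl2l11, Pim2, Tnfrsf1a and Tradd.

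The direction of all 8 detected genes was the same under every alternative processing that gave a value. For these genes, alternatives of the detection rule, the minimum signal or the table could not alter the value. Only the normalizations and the background modelling could. Mcl1 lay between -0.43 and -0.36, Bax between 0.16 and 0.22, Bid between 0.12 and 0.13, and Bcl2l1 between -0.04 and -0.01. Bcl2l2 lay between 0.04 and 0.27, Bad between 0.13 and 0.30, and Bak1 between -0.19 and -0.01. The range was widest for Bcl2l11, from -0.86 to -0.26.

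**Figure D5:**
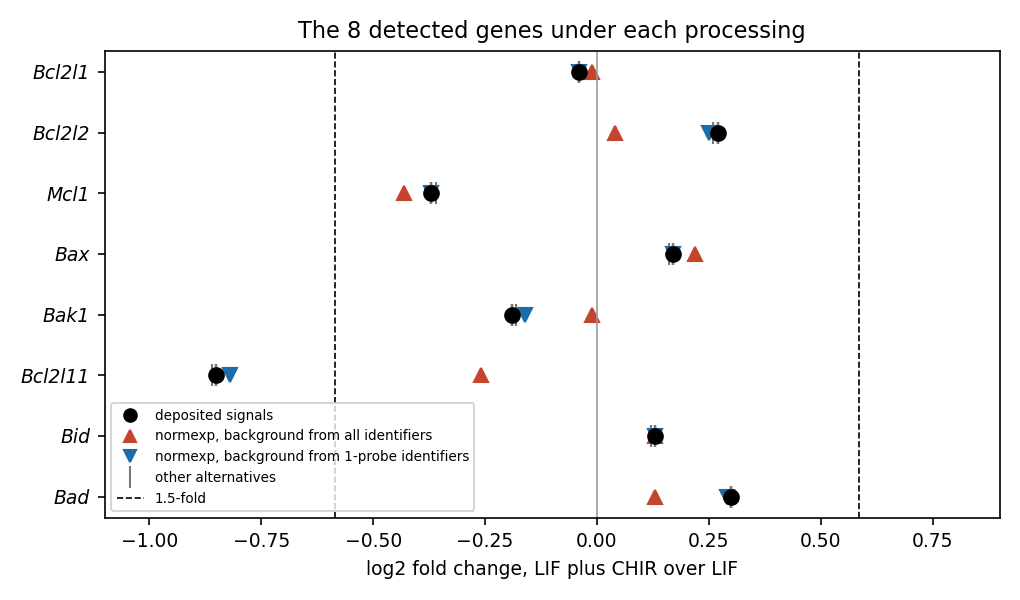
The log2 fold change of LIF plus CHIR over LIF for the 8 detected genes under each processing, with black circles for the deposited signals, red and blue triangles for background modelling (normexp) from all identifiers and from identifiers that appear to have 1 probe, grey ticks for the other alternatives and dashed lines at 1.5-fold. Bcl2l11 crosses the 1.5-fold line under the first of these corrections, where it has -0.26.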

How the data were processed

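Total RNA of both conditions was measured on 1 Illumina mouse beadchip each. The authors deposited signal intensity, in which 11742 values in LIF and 11741 in LIF plus CHIR are below 0, and a detection p-value for each signal. The software, the normalization and a genome build are not given in the sources used here. A shorter table, labelled as normalized, holds 11702 of the 30774 identifiers. The longer table, used here, is labelled as not normalized, yet 0 of the shared values differed. The 10 genes and all gene lists were chosen with earlier results of these data known.

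The log2 ratio of LIF plus CHIR over LIF was computed for each identifier that either array detected (p-value under 0.01), after raising dim signals to a minimum, the lowest that each array detected (15.1 in LIF, 14.8 in LIF plus CHIR) (Python 3.11.15, pandas 2.3.3, numpy 2.4.6). Identifiers were merged into genes by Entrez number, and a gene was called if any of them passed 1.5-fold. The number of negative controls is not given and was inferred from the detection p-values as 936. A detection p-value that was no multiple of 1 over 936, within 0.001 of a whole number of controls, was read as a combination of several probes. This reading holds for 5 of the 10 genes, and the other 5 have a p-value of 0 on both arrays, which does not tell. List entries were matched by Entrez number (74) or symbol (18), and 6 have no identifier. From each list, genes past 1.5-fold and the 4 detected on both arrays with the largest absolute change were to be named, and Birc2 and Birc5 were the only detected ones of theirs. A gene that this rule names is not reported here. With 2 arrays, no gene was named for a pattern like that of a member. Functions were tested on simulated arrays. Background modelling used limma 3.58.1 in R 4.3.3 with an offset of 16. Other alternatives were quantile normalization, scaling to equal medians, a looser detection limit of 0.05, a requirement of detection on both arrays, other minimum signals, the shorter table, a limit of 2-fold and the brightest identifier of a gene. Detection by signal was added after seeing the data. The number of arrays limits the precision.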

Additional observations from a re-analysis of the deposited data

How the results depend on the processing

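No paired analysis was possible because there is a single LIF and a single LIF plus CHIR array. The limits are the single array per condition, the unstated normalization, and the averaging over probes.

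Background modelling from all identifiers took Bcl2l11 from -0.85 to -0.26, and left 0 members called lower. Of the ratios of survival to pro-apoptotic genes, 1 then changed by 1.5-fold (3 before, of which 0 remained) and 4 were higher (7 before). Mcl1 over Bcl2l11 turned from 0.49 to -0.17. Axin2 went from 1.91 to 0.94 and Sp5 from 4.05 to 0.75. Bik, Bbc3, Bmf and Foxo1 kept their direction at -0.03, -0.11, -0.03 and -0.10. It left 0 genes of the other lists called in either direction, and 55 genes higher and 49 lower over the array (395 and 387 before). Modelling from 1-probe identifiers left 1 gene of the other lists higher and 0 lower. Axin2 then had 1.86, Sp5 3.68 and Mcl1 over Bcl2l11 0.46, and the 3 ratios past the limit in the deposited signals stayed past it. At a limit of 2-fold, 0 members were lower, 1 ratio changed, 0 genes of the other lists were called in either direction, and 129 genes were higher and 85 lower. With the detection limit loosened to 0.05, 682 genes were higher and 684 lower. When both arrays had to detect a gene, these were 203 and 227, with 0 genes of the other lists higher. The minimum signal of 1-probe identifiers (51.9 in LIF, 47.1 in LIF plus CHIR) gave 247 genes higher and left 1 gene of the other lists higher. Tnfrsf1a, whose signals both lie below it, then had -0.14 in place of 0.84, the ratio of the minimum signals alone. Detection by signal left 1 gene of the other lists higher.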

Other observations

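Some apoptosis genes were bright without being detected. For 10 genes of the lists the signals on both arrays exceeded 74.4 in LIF and 69.5 in LIF plus CHIR, the level at which 1 negative control was brighter, although neither p-value was under 0.01. All 10 appeared to combine several probes. Diablo, which encodes an antagonist of the inhibitors of apoptosis, had 2195.7 in LIF and 2138.1 in LIF plus CHIR, with detection p-values of 0.111 and 0.258. Vdac3, a channel of the outer mitochondrial membrane, had 2206.6 and 2072.1, and Aifm1, a mitochondrial death effector, had 315.4 and 280.8. From the list of other Bcl2 family genes and interacting proteins, Bcl2l12 had 164.4 and 163.4, and Bnip2 had 355.3 and 327.3. The log2 ratio of the 10 genes lay between -0.39 and 0.20, and 0 of them reached 1.5-fold. These genes were chosen after their values were seen.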
